A study of Homo sapiens with 6 samples.

Results

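Transfer RNA (tRNA) entries are the rows of a repeat count table that carry reads assigned to annotated tRNA copies. All rows whose name starts with tRNA- were taken, which gave 62 of 15641 entries, and they were grouped by the amino acid in the name. The RNA came from the chromatin fraction of the human embryonic stem cell line H9, which is long established, in 3 libraries labelled naive and 3 labelled primed. The labels describe RSeT culture, a medium meant to hold cells in a naive state, for all 6 libraries, so the primed state rests on the treatment label alone. No genetic change and no further agent is named for either group, and all libraries come from the same line.

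The libraries held 9748202, 17791046 and 16700953 counts in naive libraries 1 to 3, against 7192242, 118793 and 8106871 counts in primed libraries 1 to 3. Primed library 2 stood apart: a level of 16.8 CPM (reads scaled to the same total in each library) there rests on 3 counts, and 48 of the 62 tRNA entries had 0 counts there. The table holds repeat names, so protein-coding markers of the 2 states were not analysed here. Of the repeats linked to pluripotent or naive cells, HERVH-int, LTR7, HERVK-int and LTR5_Hs were called higher in naive libraries, and SVA_D and LTR7Y did not pass the test. The labels do not say whether separate cultures were used, so the spread among these libraries may be technical. Each p-value rests on that spread, which the fit estimates in part over all entries tested and not from the single entry alone. In such bulk RNA, fewer cells of a kind and less RNA per cell cannot be told apart.

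Transfer RNAs carry amino acids to the ribosome, where their anticodon pairs with a codon of the messenger RNA. Nuclear tRNA genes occur in many near-identical copies, are transcribed by RNA polymerase III from promoter elements inside the gene, and give precursors that are trimmed in the nucleus. Mitochondria encode and transcribe their own tRNAs, which are cut out of long transcripts of the mitochondrial genome. Standard silica columns, the kind the labels name, retain RNA as small as mature tRNA poorly. The reads may come from mature tRNA, precursors or longer RNAs that run through a tRNA copy; the table does not separate these.

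The names hold codons. In 59 of the 62 names 3 letters follow the amino acid, and in all 59 these letters, with Y for C or T, are codons of that amino acid in the standard code (TGA for selenocysteine). The 3 methionine entries carry no letters. The suffix (m) stands on 2 entries, tRNA-Ser-TCA(m) and tRNA-Leu-TTA(m), and its meaning, like that of _v and of a closing _ sign, is unstated in the sources used here. Because these 2 entries hold much of the tRNA signal, the human mitochondrial tRNAs that read the same codons are shown for orientation, as spelled in GENCODE release 29 (GRCh38, chromosome M), which lists 22 mitochondrial tRNA genes. Capitals mark the anticodon, at bases 31 to 33 of MT-TS1 and at bases 36 to 38 of MT-TL1:
MT-TS1: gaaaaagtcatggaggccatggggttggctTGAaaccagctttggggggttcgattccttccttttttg
MT-TL1: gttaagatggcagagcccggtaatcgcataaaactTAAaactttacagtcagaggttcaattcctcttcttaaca
Whether reads of the (m) entries come from these RNAs, from nuclear copies of them or from other tRNA copies was not tested, since the table gives no positions.

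The tRNA entries as a whole were a small and lower part of the naive libraries. They held 0.0405%, 0.0145% and 0.0154% of all counts in naive libraries 1 to 3, against 0.151%, 0.0749% and 0.0667% in primed libraries 1 to 3. The groups did not overlap, and the mean share was 0.0235% ± 0.0148 in naive libraries and 0.0975% ± 0.0464 in primed libraries (SD, n = 3 each). The difference of -0.0740 percentage points was -0.0473 without primed library 1. The share of primed library 2 rests on 89 tRNA counts, with a 95% Wilson interval of 0.0609% to 0.0922% that covers counting error only. Alpha satellite takes a large part of the naive counts and so lowers every other share. With it left out of the total, the shares were 0.0344% ± 0.0172 in naive libraries and 0.0978% ± 0.0464 in primed libraries. The values below are therefore scaled by TMM (trimmed mean of M-values, a factor per library set by the bulk of entries) and given as CPM.

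The 2 entries with (m) held 67.2%, 49.0% and 34.1% of the tRNA counts in naive libraries 1 to 3, against 84.7%, 59.6% and 62.7% in primed libraries 1 to 3. These are shares of reads, not corrected for length or number of copies. Summed, the pair stood at 302, 113 and 61.6 CPM in naive libraries, against 1163, 296 and 338 CPM in primed libraries. Naive library 1 lay just above primed library 2, so the groups overlapped. The other 60 entries summed to 147, 118 and 119 CPM in naive libraries, against 210, 201 and 201 CPM in primed libraries, with no overlap. Their mean was 128 ± 16.6 CPM in naive libraries and 204 ± 5.04 CPM in primed libraries (SD, n = 3 each).

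**Figure D1:**
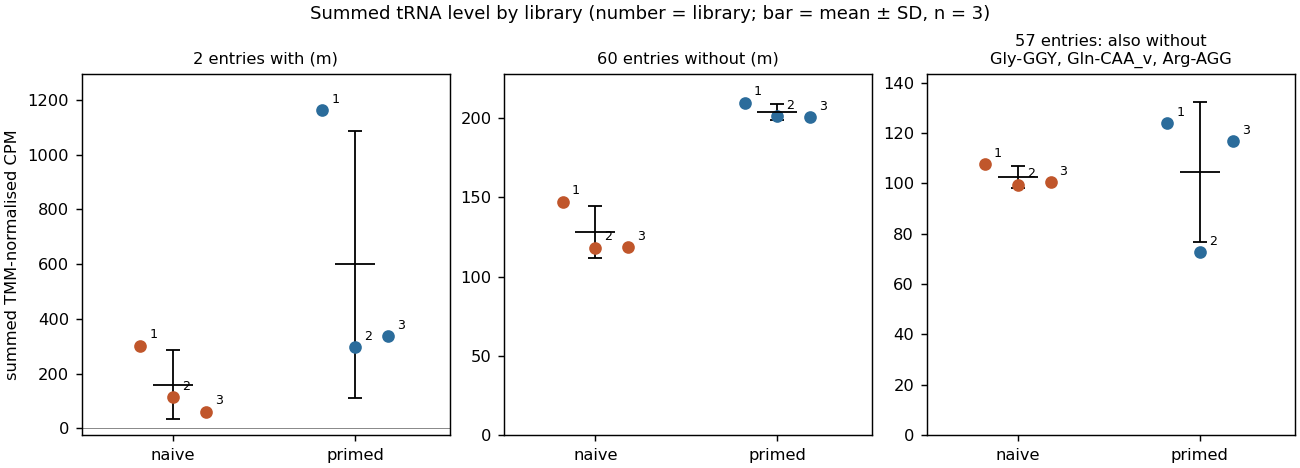
Summed TMM-normalised CPM (y axis, from 0) of the 2 (m) entries, of the 60 other tRNA entries, and of the 57 left when Gly-GGY, Gln-CAA_v and Arg-AGG are also taken out, in naive and primed libraries. Points are single libraries with their number and bars are mean ± SD (n = 3). The 60 entries separate the groups, with the point of primed library 2 resting on 36 counts. The 57 were chosen after their values were seen, and they overlap through primed library 2, whose sum rests on 13 counts.

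Nuclear serine tRNAs stand out by a long variable arm. Among the serine entries tRNA-Ser-TCA(m) had the most reads, with 1831, 843 and 606 counts in naive libraries 1 to 3, against 7294, 36 and 2609 counts in primed libraries 1 to 3. Scaled, that is 208, 75.5 and 42.5 CPM in naive libraries and 923, 201 and 260 CPM in primed libraries. Primed library 1 was far above all others, and naive library 1 was slightly above primed library 2, so the groups overlapped. The entry fell in naive libraries by 2.16 on the log2 scale (SE 0.60), which is 4.46-fold, and was called (adjusted p = 0.0393 by edgeR, with Benjamini-Hochberg adjustment). Without primed library 1 it gave -1.16 (edgeR adjusted p = 0.312) and without naive library 2 -1.90 (0.0511), while its call was kept without any other single library.

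tRNA-Leu-TTA(m), the leucine counterpart, had 823, 422 and 271 counts in naive libraries and 1898, 17 and 782 counts in primed libraries. That is 93.6, 37.8 and 19.0 CPM in naive libraries, against 240, 95.1 and 77.9 CPM in primed libraries. Again naive library 1 lay inside the primed range, and the log2 change of -1.56 ± 0.53 (SE) did not pass (edgeR adjusted p = 0.0700). It was past the threshold without naive library 1 (-2.35, edgeR adjusted p = 0.000573) or primed library 3 (-1.94, 0.0452), and gave -0.74 without primed library 1 (0.585).

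The 2 (m) entries did not keep one ratio. There were 2.22, 1.998 and 2.24 serine reads per leucine read in naive libraries 1 to 3, against 3.84, 2.12 and 3.34 in primed libraries 1 to 3. The ratio of primed library 2 rests on 36 and 17 counts and lay in the naive range. The ribosomal entry LSU-rRNA_Hsa was also highest in primed library 1 and lowest in naive library 3, with 49284, 57451 and 1413 CPM in naive libraries 1 to 3 and 117954, 17420 and 42973 CPM in primed libraries 1 to 3. Its part in the (m) values was not tested.

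Of the 62 entries, 30 had enough reads to be tested, and these held 24814 of the tRNA counts, the rest holding 633. The filter asked for about 1.12 CPM in at least 3 libraries. Of the 30, 11 reached that in all libraries, 15 in every naive library but not in every primed one, and 4 in all libraries of neither group. In the fit over 3219 repeat entries, 4 tRNA entries were called lower in naive libraries and 0 higher, the other 26 not passing. Over all entries tested, 7.77% were called lower and 4.94% higher, and over named repeats alone 1.19% were called lower. At an unadjusted p under 0.05, 8 tRNA entries were lower and 2 higher by edgeR (18.3% and 13.3% of all entries). DESeq2, on the same filter, called 2 lower and 0 higher of the 16 tRNA entries to which it gave an adjusted p (5.84% of all entries lower). Without primed library 1, 1 tRNA entry and 0.202% of all entries were called lower, and without naive library 2, 1 entry and 3.44%. With library size as the sole scaling, 13 tRNA entries and 32.6% of all entries were called lower, and with no filter 8 and 5.86%. The log2 changes ran from -2.16 to 1.46 with a median of -0.39, against -0.0046 over all entries tested, and 18 were below 0. Over the 1265 named repeats tested, which leave out simple repeats, the median was 0.21, with 975 above 0 and 290 below. The tRNA median covers tested entries, not all members.

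**Figure D2:**
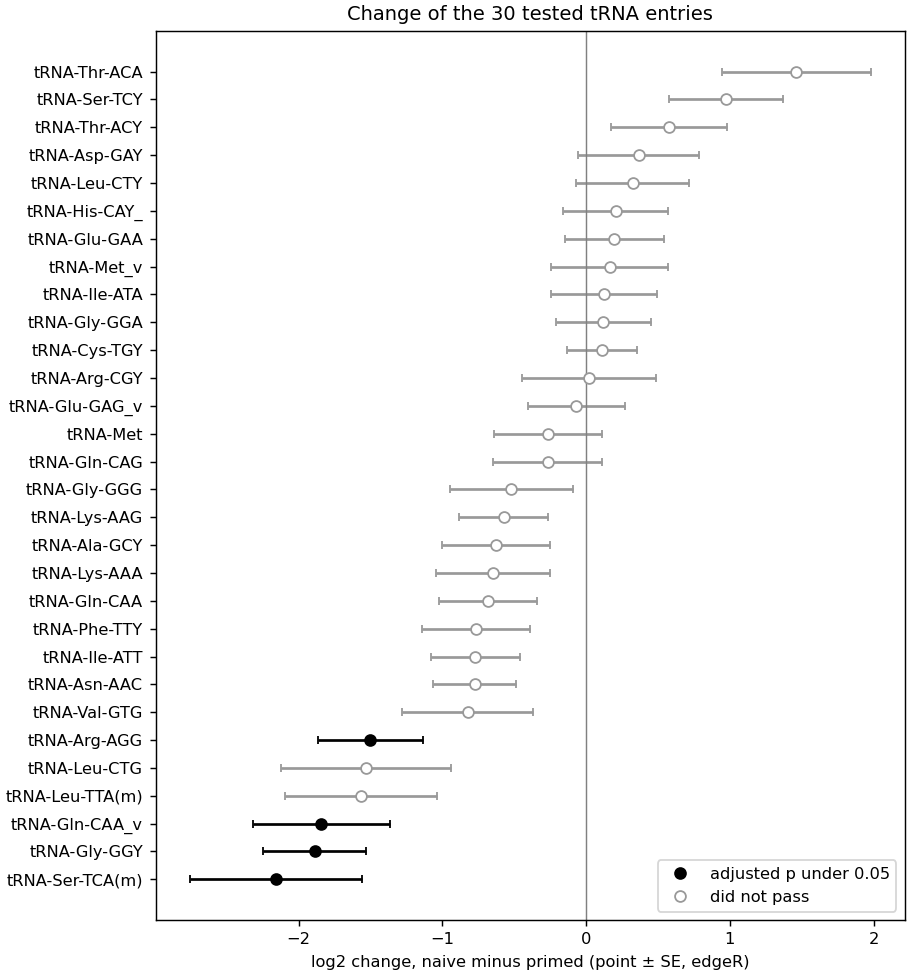
Log2 change (x axis, naive minus primed, point ± SE from edgeR) of the 30 tested tRNA entries, from the highest to the lowest. Filled points are the 4 entries past an adjusted p of 0.05, all below 0; open points did not pass.

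Glycine entries held the most reads among tRNA entries without (m), and within glycine the 3 codon entries gave different values. tRNA-Gly-GGY, named for the glycine codons that end in C or T, had 205, 112 and 188 counts in naive libraries 1 to 3, against 314, 20 and 587 counts in primed libraries 1 to 3. Scaled, it stood at 23.3, 10.04 and 13.2 CPM in naive libraries and 39.7, 112 and 58.5 CPM in primed libraries. All naive values lay below all primed values, and primed library 2 was the highest. The entry fell in naive libraries by 1.89 (log2; SE 0.36; edgeR adjusted p = 0.0133), or 3.70-fold. It was called whichever single library was left out, with log2 changes between -2.26 and -1.64 and adjusted p between 0.000223 and 0.0329. With all libraries thinned to the depth of primed library 2 it was not called (-0.92, edgeR adjusted p = 0.999).

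tRNA-Gly-GGA had 75, 111 and 100 counts in naive libraries, against 64, 0 and 83 counts in primed libraries. Its change was 0.12 ± 0.33 (log2, SE; edgeR adjusted p = 0.861), and tRNA-Gly-GGG gave -0.52 ± 0.43 (0.441). Whether tRNA-Gly-GGY differs in its change from these was not tested. All glycine entries together stood at 33.2, 23.0 and 23.7 CPM in naive libraries, against 51.7, 112 and 70.8 CPM in primed libraries. The 20 glycine counts of primed library 2 were all from tRNA-Gly-GGY.

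Among the 3 glutamine entries 1 was called, the one with the suffix _v. tRNA-Gln-CAA_v had 127, 74 and 48 counts in naive libraries, against 320, 3 and 197 counts in primed libraries. That is 14.4, 6.63 and 3.37 CPM in naive libraries and 40.5, 16.8 and 19.6 CPM in primed libraries, with no overlap, though the nearest primed value is that of library 2 with its 3 counts. It fell in naive libraries by 1.84 (log2; SE 0.48; edgeR adjusted p = 0.0304). As in both (m) entries, naive library 1 was the highest and naive library 3 the lowest of the naive libraries, and primed library 1 the highest of all. Without primed library 1 it gave -1.28 (edgeR adjusted p = 0.298), and without naive library 2 -1.68 (0.0505). The entries tRNA-Gln-CAA and tRNA-Gln-CAG gave -0.68 ± 0.34 (edgeR adjusted p = 0.198) and -0.27 ± 0.38 (0.662).

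Among 6 arginine entries 2 were tested. tRNA-Arg-AGG had 18, 23 and 25 counts in naive libraries, against 44, 0 and 60 counts in primed libraries. The naive values of 2.05, 2.06 and 1.75 CPM lay close together, below the 5.57 and 5.98 CPM of primed libraries 1 and 3. The 0 in primed library 2 allows up to 16.8 CPM, so it says nothing on the level there. It fell in naive libraries, with a log2 change of -1.502 (SE 0.37; edgeR adjusted p = 0.0276), and that change was between -1.55 and -1.39 in the 6 fits without 1 library. The adjusted p was past the threshold in 2 of those fits, without naive library 1 (0.0305) or primed library 2 (0.0203), and was 0.0791 without naive library 2, 0.0690 without naive library 3, 0.173 without primed library 1 and 0.0738 without primed library 3. tRNA-Arg-CGY gave 0.02 ± 0.47 (log2, SE; edgeR adjusted p = 0.984).

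**Figure D3:**
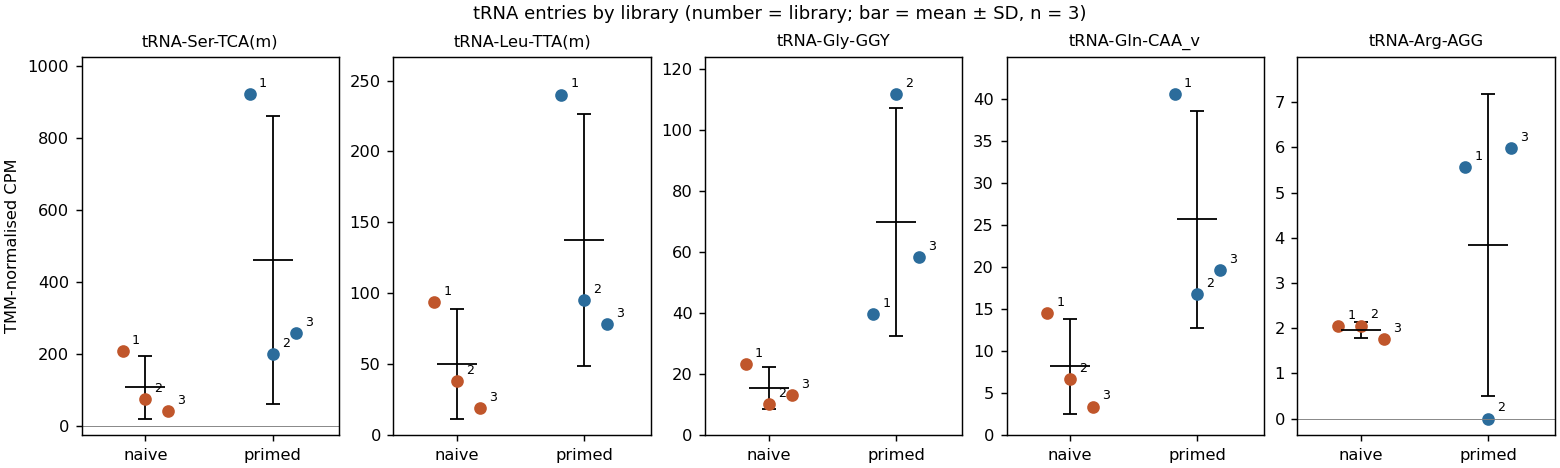
TMM-normalised CPM (y axis, from 0, scale differs by panel) of the 4 called tRNA entries and tRNA-Leu-TTA(m) in naive and primed libraries, with library numbers and mean ± SD (n = 3). Primed library 1 is the highest point of both (m) entries and of tRNA-Gln-CAA_v, and primed library 2 that of tRNA-Gly-GGY.

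With both (m) entries and these 3 entries taken out, which is a choice made after their values were seen, the remaining 57 entries summed to 107, 99.5 and 100 CPM in naive libraries, against 124, 72.7 and 117 CPM in primed libraries. Means were 102 ± 4.38 CPM in naive libraries and 104 ± 27.7 CPM in primed libraries (SD, n = 3 each). The value of primed library 2 rests on 13 counts, and primed libraries 1 and 3 both lay above the naive ones. No test was made of this sum.

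**Figure D4:**
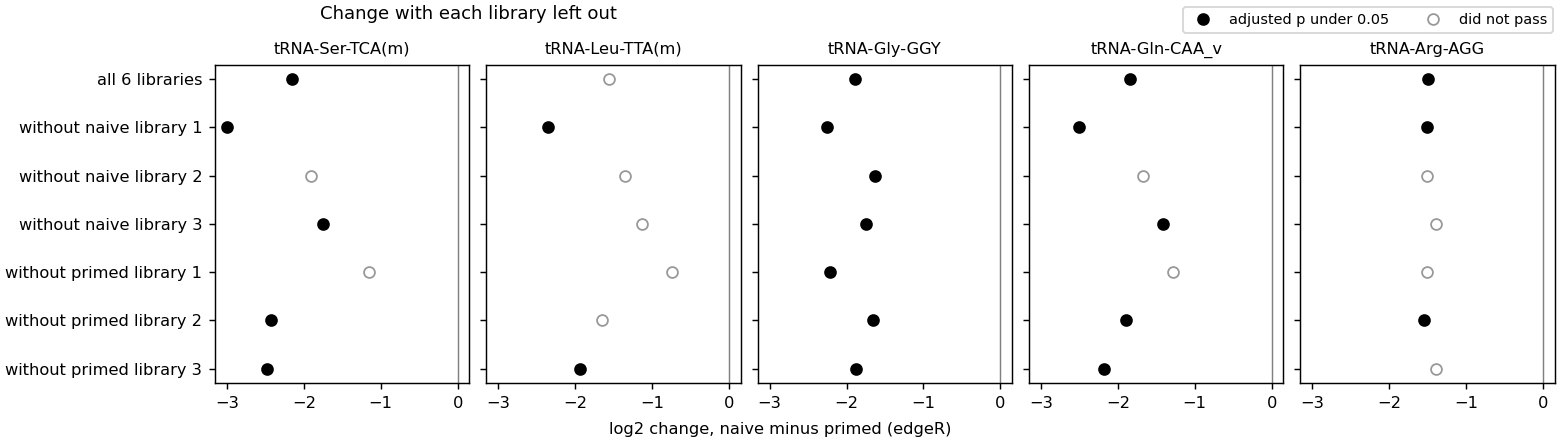
Log2 change (x axis, naive minus primed, edgeR) of the 4 called tRNA entries and tRNA-Leu-TTA(m) with all 6 libraries and with each library left out (y axis). Filled points passed an adjusted p of 0.05; tRNA-Gly-GGY is filled in every row and the other 4 entries are not.

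Among the other entries with most reads, tRNA-Cys-TGY, the cysteine entry, had similar values in both groups. There were 111, 136 and 202 counts in naive libraries, against 92, 3 and 119 counts in primed libraries, or 13.0 ± 1.05 CPM in naive libraries and 13.4 ± 2.91 CPM in primed libraries (SD, n = 3 each). Its log2 change was 0.11 ± 0.24 (SE; edgeR adjusted p = 0.781), which with this SE leaves changes of either sign possible. tRNA-Ile-ATT was at 6.14, 3.76 and 5.55 CPM in naive libraries, against 9.36, 5.59 and 8.57 CPM in primed libraries, and its change of -0.77 ± 0.31 (log2, SE) did not pass (edgeR adjusted p = 0.119). tRNA-Asn-AAC, for asparagine, stood at 4.66, 4.75 and 5.47 CPM in naive libraries, against 9.23, 5.59 and 8.17 CPM in primed libraries. The groups stood apart by a single read, the 1 count behind the 5.59 CPM of primed library 2, and its change of -0.78 ± 0.29 did not pass (edgeR adjusted p = 0.0959). It passed when simple repeats were left out of the fit (-0.99, 0.0420).

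The highest positive changes were those of threonine and serine entries, and none of these passed. tRNA-Thr-ACA had 13, 26 and 39 counts in naive libraries, against 5, 1 and 8 counts in primed libraries, with a log2 change of 1.46 ± 0.52 (SE; edgeR adjusted p = 0.082). It was past the threshold without naive library 1 (1.69, edgeR adjusted p = 0.0406). tRNA-Ser-TCY had 33, 41 and 44 counts in naive libraries, against 18, 0 and 14 counts in primed libraries, and gave 0.97 ± 0.40 (edgeR adjusted p = 0.122). tRNA-Thr-ACY gave 0.58 ± 0.40 (edgeR adjusted p = 0.350). tRNA-Ser-TCY, the 1 serine entry without (m) that was tested, thus had a change of the opposite sign to tRNA-Ser-TCA(m), and the difference between the 2 was not tested.

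By non-overlap of CPM, 5 of the 30 tested entries were lower in every naive library than in any primed one and 2 were higher, against 11.0% and 19.4% of all entries tested. The 5 were tRNA-Gly-GGY, tRNA-Gln-CAA_v, tRNA-Asn-AAC, tRNA-Lys-AAG and tRNA-Gln-CAA, and the 2 were tRNA-Ser-TCY and tRNA-Thr-ACY. In primed library 2 the last 3 of the lower entries had 1 count each (5.59 CPM) and tRNA-Gln-CAA_v had 3, so their separation rests on those reads. Both higher entries had 0 counts there, which allows up to 16.8 CPM.

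Summed by amino acid, without the (m) entries, the names cover the 20 standard amino acids and selenocysteine, 21 in all. Glycine, glutamine, asparagine, isoleucine and lysine sums were lower in every naive library than in any primed one, and threonine and tryptophan sums were higher. In primed library 2 the asparagine, lysine and threonine sums rest on 1 count each, isoleucine on 2, glutamine on 4 and tryptophan on 0, so of these sums glycine alone, with 20 counts, separates on more than a few reads. Threonine stood at 5.69, 5.82 and 5.90 CPM in naive libraries, against 4.93, 5.59 and 4.48 CPM in primed libraries. Tryptophan rests on 26 counts in the naive and 6 in the primed libraries. Glutamate was close in both, at 10.2 ± 0.82 CPM in naive libraries and 10.1 ± 0.99 CPM in primed libraries (SD, n = 3 each). Its value in primed library 2 rests on 2 counts, a counting error that the SD does not include.

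As shares of the tRNA counts without (m), which do not depend on scaling factors but must add up to the whole, glycine took 22.5%, 19.5% and 20.0% in naive libraries 1 to 3, against 24.7%, 55.6% and 35.3% in primed libraries 1 to 3. For primed library 2 the 95% Wilson interval ran from 39.6% to 70.5%. Glycine was the one amino acid whose share was lower in every naive library than in any primed one. The nearest shares were those of naive library 1 (95% Wilson interval 20.4% to 24.9%) and primed library 1 (22.7% to 26.8%), whose intervals overlap. Glutamine took 13.0%, 10.2% and 7.39% in naive libraries, against 23.2%, 11.1% and 13.1% in primed libraries, the 11.1% resting on 4 counts. Cysteine, glutamate, histidine, methionine, serine, threonine, aspartate, tyrosine and tryptophan, 9 in all, had higher shares in every naive library, and the other 11 overlapped. With primed library 2 left out the same 9 were higher, and glycine and glutamine lower. Aspartate, histidine, methionine, tyrosine and tryptophan had 0 counts in primed library 2. Tyrosine rests on 13, 13 and 17 counts in naive libraries, against 14, 0 and 14 counts in primed libraries. In mean CPM without primed library 2, methionine (4.91 naive, 5.73 primed) and tyrosine (1.28 naive, 1.58 primed) were lower in naive libraries, and the rest of the 9 were higher.

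**Figure D5:**
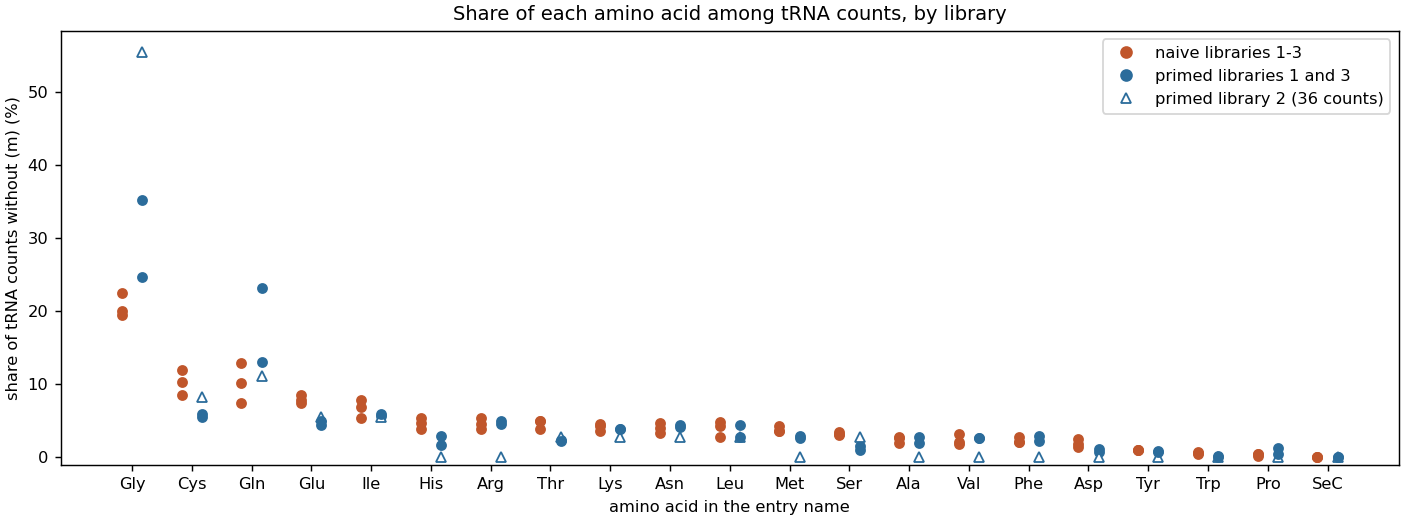
Share of each amino acid (x axis) among tRNA counts without the (m) entries (y axis, %), by library; open triangles are primed library 2, with 36 such counts. Glycine lies between 19.5% and 22.5% in naive libraries and between 24.7% and 55.6% in primed libraries.

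The 32 entries that were not tested held 633 counts in all 6 libraries, at most 64 each, with a median of 14.5. Of these, 3 had 0 counts in every library (tRNA-Glu-GAG, tRNA-Ala-GCA and tRNA-Arg-CGA_). Mean CPM was higher in naive libraries for 16 and in primed libraries for 13. No proline, tyrosine, tryptophan or selenocysteine entry was tested. tRNA-Met-i, whose suffix is that of the initiator tRNA that starts translation, had 12, 5 and 5 counts in naive libraries, against 9, 0 and 9 counts in primed libraries. tRNA-SeC(e)-TGA, the selenocysteine entry, had 0, 1 and 0 counts in naive libraries, against 1, 0 and 0 counts in primed libraries. With no filter on low counts edgeR called 2 of the 32 entries lower in naive libraries. That is near the share over all entries in that fit, 5.86%. tRNA-Pro-CCY had 1, 2 and 2 counts in naive libraries, against 12, 0 and 6 counts in primed libraries. tRNA-Leu-CTA had 1, 0 and 0 counts in naive libraries, against 7, 1 and 1 counts in primed libraries. The groups overlapped in CPM for both. No suppressor entry is among the 62.

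Entries named for other RNAs made by RNA polymerase III gave 0 calls in 9 entries, by edgeR, with 1 at an unadjusted p under 0.05. Their log2 changes ran from -0.48 to 0.58 (median -0.15). Over all entries tested 12.7% were called in either direction, and 18.3% were lower and 13.3% higher at an unadjusted p under 0.05. Whether the 9 entries differ from these shares was not tested. Nor was it tested whether their reads come from the RNAs named or from other copies. The entry 5S, named for the 5S ribosomal RNA, stood at 74.9 ± 3.23 CPM in naive libraries and 65.7 ± 9.36 CPM in primed libraries. Its change was 0.12 (log2, edgeR adjusted p = 0.584). U6, the spliceosomal RNA of this polymerase, gave 0.08 (edgeR adjusted p = 0.808), and 7SK, which restrains the elongation factor P-TEFb, gave -0.08 (0.814). 7SLRNA, the RNA of the signal recognition particle, gave -0.48 (edgeR adjusted p = 0.189), and BC200, a primate RNA related to it, gave -0.37 (0.234). Of the Y RNAs, partners of the Ro60 protein, HY1 gave -0.48 ± 0.15 (edgeR adjusted p = 0.0589), with 45.1 ± 2.44 CPM in naive libraries and 65.4 ± 8.05 CPM in primed libraries (SD, n = 3 each). HY3, HY4 and HY5 gave -0.15, -0.46 and 0.58 (edgeR adjusted p = 0.592, 0.202 and 0.379).

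MIR elements are old short interspersed repeats whose head derives from a tRNA. In which transcripts their reads lie was not tested. Of the 5 MIR entries 0 were called by edgeR, against 12.7% of all entries tested. At an unadjusted p under 0.05 there were 0, against 18.3% lower and 13.3% higher of all entries. Whether the 5 entries differ from these shares was not tested. MIR, MIRb, MIRc, MIR3 and MIR1_Amn gave log2 changes of 0.14, 0.14, 0.11, -0.02 and 0.11, with edgeR adjusted p between 0.409 and 0.925.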

How the data were processed

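The authors' deposited file holds raw counts for every repeat name in each library. Per the submitters' processing notes the tools were Trimmomatic 0.39, STAR 2.7.8a, featureCounts and Subread 2.14.2; per the labels' protocols RNA was column-purified and libraries were directional. Build, annotation, strandedness of counting and the handling of multi-mapped reads are unstated in the sources used here, so reads can move between near-identical tRNA copies. Counts were fitted over the whole table with edgeR 4.0.16 (R 4.3.3): filterByExpr, TMM, quasi-likelihood F-test for naive over primed, Benjamini-Hochberg over 3219 entries, threshold 0.05. The SE is the log2 change divided by the square root of F. DESeq2 1.42.0 was an alternative. Members and lists were chosen with earlier results of these data known. Named entries were those called, the 8 with most reads, the 3 largest changes each way, initiator and selenocysteine entries and both other lists; further names were chosen after their values were seen. Replicate numbers were not used as pairs: deviations of same-numbered libraries correlated at 0.146, 0.0867 and 0.0659, and the labels give no shared origin. The script was tested on simulated counts. Wilson intervals (95%) and limits from 3 counts cover counting error only. Figures were drawn with matplotlib 3.10.9.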

Additional observations from a re-analysis of the deposited data

How the results depend on the processing

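The count of 4 tRNA entries called lower (7.77% of all entries) became 13 with library size alone. With that scaling 32.6% of all entries were called lower, and the median of all entries moved to -0.61. The count was 8 with no filter (5.86% of all entries). With DESeq2 it was 2 of 11 tested on default filtering (5.46%) and 2 of 16 on the main filter (5.84%). It was 0 of 4 tested, with 0 at an unadjusted p under 0.05, when all libraries were thinned to the depth of primed library 2 (0 of 834 entries lower). tRNA-Gly-GGY then gave -0.92 and tRNA-Ser-TCA(m) -2.71 (edgeR adjusted p = 0.999 for both). Leaving out 1 library gave 1 to 5 called lower (0.202% to 11.8% of all entries) and 0 to 1 called higher (0.23% to 6.81%). The most calls, 5 lower and 1 higher, came without naive library 1, where 11.8% and 6.81% of all entries were called. The count called lower was 1, tRNA-Gly-GGY, without naive library 2 (3.44% of all entries) or primed library 1 (0.202%). The replicate number as a block gave 5 (11.6% of all entries lower), adding tRNA-Leu-TTA(m) (-1.62, edgeR adjusted p = 4.95e-21). Without the block this entry had nearly the same change (-1.56, edgeR adjusted p = 0.0700). The block leaves few data to measure the spread. With no block, this entry also gave small edgeR adjusted p-values with no filter (-1.55, 5.17e-12) and with library size alone (-2.07, 6.01e-12). For tRNA-Ser-TCA(m), at 0.0393 in the main fit, these settings gave 1.84e-29 and 1.94e-18. What made these p-values so small was not tested, and none is a measure of the spread among 3 against 3 libraries. Each library deviated most like its own number, a hint from the data and not the design. The median log2 change of the tested entries (-0.39) was -0.99 with library size alone, -0.61 without simple repeats, -0.93 over the entries left after thinning, and -0.46 to -0.22 with 1 library left out. Chosen after seeing the data, leaving out the (m) entries gave a median of -0.27 and 3 of 28 tested called lower (7.77% of all entries). The share difference of naive minus primed, -0.0740 percentage points, was then -0.0158 points. No called entry changed sign. tRNA-Ser-TCA(m) also missed the threshold by DESeq2 (adjusted p = 0.127 and 0.125) and without simple repeats (edgeR adjusted p = 0.0921), and so did tRNA-Gln-CAA_v without simple repeats (0.0679) and tRNA-Arg-AGG by DESeq2 (0.207). The cause of these changes was not tested. The depth of primed library 2, where 18 of the 30 tested entries had 0 counts, limits every entry outside the 3 most abundant.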
